A study of Mus musculus with 6 samples.

Results

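The genes described here carry the instructions for respiratory complex I, the NADH dehydrogenase of mitochondria, and for proteins that help to build it. They were taken as every gene of the deposited count table whose symbol begins with Nduf, which gave 45 of 20632 genes. Of these, 38 carry a subunit name (Ndufa, Ndufab, Ndufb, Ndufc, Ndufs or Ndufv) and 7 carry an assembly factor name (Ndufaf). The rule used names and no measured value, though earlier results of these data were known when the genes were chosen. All 45 genes passed the filter on low counts that left 12116 genes for the comparison.

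Complex I takes electrons from NADH, passes them along iron-sulfur clusters to ubiquinone, and pumps protons across the inner mitochondrial membrane, which feeds ATP synthesis. Its matrix arm holds the catalytic core subunits encoded in the nucleus, while core subunits of its membrane arm are encoded by mitochondrial DNA. Accessory subunits surround the core, and assembly factors bind intermediates without being part of the finished enzyme. Oxidative muscle fibres are rich in this enzyme.

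Whole hind limb muscles of 6 male mice of C57BL/6 background (C57BL/6J in the study's methods) aged 3 months, which had not been exercised and ate normal chow, gave 1 RNA library each. The control group, called Baf155WT, held 3 mice with both Baf155 alleles floxed and no Cre. The other group, Baf155ΔMF (Baf155 -/- in the labels), held 3 mice with the same floxed alleles and a Cre driven by the muscle creatine kinase (MCK) promoter, which is active in muscle fibres and the heart. Other cells of the muscle keep Baf155, a subunit of the SWI/SNF chromatin remodelling complex encoded by Smarcc1. The comparison asks how the levels of complex I transcripts differ between muscles with and without Baf155 in their fibres. In these bulk samples, fewer cells of a type and less RNA per cell cannot be told apart.

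The total per mouse was between 8426022 and 12469335 counts, and 3 counts, taken as the floor, equalled 0.229 to 0.351 CPM (TMM-scaled counts relative to a common library total), which covers counting error only. Smarcc1 was at 23.4, 19.5 and 17.0 CPM in the Baf155WT mice and at 7.05, 6.54 and 7.72 CPM in the Baf155ΔMF mice (log2 fold change -1.49, standard error 0.15, adjusted p = 0.00907 by edgeR's quasi-likelihood test with Benjamini-Hochberg adjustment). Values are always given in the order of mice 1, 2 and 3 of a group. The sample titles begin with MS13 for Baf155WT mouse 1 and Baf155ΔMF mice 1 and 2, with MS15 for Baf155WT mice 2 and 3, and with MS14 for Baf155ΔMF mouse 3. The labels do not say what the prefix means, and outside MS13 it cannot be told apart from the genotype. On the first principal component (43.3% of the variance) the MS15 mice lay at 25.0 and 22.5, the MS13 mice between -17.1 and -13.4, and the MS14 mouse at -1.56. The 7 defining markers of muscle fibres were abundant in every mouse. Their summed levels were 127474 to 131520.0 CPM in Baf155WT and 120838 to 126188 CPM in Baf155ΔMF mice, without overlap. Their mean log2 CPM went the other way, being 0.024 higher in Baf155ΔMF mice. The median log2 fold change of these markers was -0.038. They ranged from -0.20 in Ckm, muscle creatine kinase, to 0.49 in Myh1, a fast myosin heavy chain with an unadjusted p under 0.05, and none had an adjusted p under 0.05 by edgeR.

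Promoter sequences are shown for the accessory subunits at the ends of the range of fold changes, Ndufb6 and Ndufa7 at the low end and Ndufb11 and Ndufa9 at the high end, so that the letters can be read beside the values below. RefSeq promoters on GRCm38.p6, from 250 bases before to 50 bases after the start of the gene, were at hand for 39 of the 45 genes. Those of Ndufa2, Ndufa4l2, Ndufaf6, Ndufb9 and Ndufs1 were among the others. Both strands were searched for short forms of motifs of regulators known from mitochondrial genes, and capitals mark a match.
Ndufb6 promoter (chr4:40279372-40279671, minus strand): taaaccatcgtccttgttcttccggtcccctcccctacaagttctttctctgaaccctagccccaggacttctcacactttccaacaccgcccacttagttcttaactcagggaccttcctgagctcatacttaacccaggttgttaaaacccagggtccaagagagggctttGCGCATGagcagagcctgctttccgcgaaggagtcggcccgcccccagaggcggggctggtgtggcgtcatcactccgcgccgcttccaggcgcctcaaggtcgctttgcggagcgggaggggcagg
Ndufa7 promoter (chr17:33824322-33824621, plus strand): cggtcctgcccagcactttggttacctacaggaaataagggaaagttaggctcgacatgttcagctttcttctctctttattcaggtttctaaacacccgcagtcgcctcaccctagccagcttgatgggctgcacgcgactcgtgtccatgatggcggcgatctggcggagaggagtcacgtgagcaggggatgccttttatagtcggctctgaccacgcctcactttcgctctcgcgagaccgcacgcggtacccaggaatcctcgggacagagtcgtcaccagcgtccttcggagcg
Ndufb11 promoter (chrX:20617570-20617869, minus strand): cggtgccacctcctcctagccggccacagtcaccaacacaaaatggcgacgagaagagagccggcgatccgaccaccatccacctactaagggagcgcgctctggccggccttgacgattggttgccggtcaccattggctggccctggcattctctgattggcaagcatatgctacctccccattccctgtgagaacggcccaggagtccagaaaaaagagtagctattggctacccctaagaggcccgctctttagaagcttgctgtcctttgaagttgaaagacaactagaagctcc
Ndufa9 promoter (chr6:126849095-126849394, minus strand): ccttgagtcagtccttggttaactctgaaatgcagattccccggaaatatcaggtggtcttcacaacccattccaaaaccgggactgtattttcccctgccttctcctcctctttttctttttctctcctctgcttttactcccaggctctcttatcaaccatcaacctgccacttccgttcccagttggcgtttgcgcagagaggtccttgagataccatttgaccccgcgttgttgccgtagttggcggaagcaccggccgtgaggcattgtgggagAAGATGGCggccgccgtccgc
The Ndufb6 window holds the core of the NRF1 motif, CATGCGC, read on the other strand as GCGCATG. The Ndufa9 window holds the YY1 motif, AAGATGGC. The Ndufa7 and Ndufb11 windows hold none of the searched letters, which says only that these letters are not in those windows. The NRF1 core was present in 7 of the 39 promoters (17.9%) and in 3.91% of all 32851 promoters, and the YY1 motif likewise in 7 of 39 (17.9%) against 2.75%. The ETS motif of GABPA, CCGGAAGT, was found once, in Ndufs3 (2.56% against 3.89% of all promoters). The ERR alpha motif, TNAAGGTCA with N for any base, was also found once, in Ndufb4 (2.56% against 1.28%). The genes with an NRF1 core had log2 fold changes from -0.26 in Ndufb6 to 0.050 in Ndufaf4 (median -0.11). Those with a YY1 motif ranged from -0.19 in Ndufa3 to 0.024 in Ndufa9 (median -0.11). The median of all 45 genes was -0.069. Ndufa4l2 and Ndufs1, which had the highest values of the family, had no promoter to search. Whether the motifs go with the fold changes was not tested.

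Complex I genes were at close to the same level in both genotypes. None of the 45 genes had an adjusted p under 0.05 in edgeR's quasi-likelihood test, where 0.0248% of all tested genes did, and the smallest adjusted p of a member was 0.611. Without Baf155WT mouse 1, the MS13 control, 955 genes of the table but still no member had an adjusted p under 0.05, the smallest of a member being 0.054. The fitted folds of Baf155ΔMF over Baf155WT lay between 0.837 and 1.21. The standard errors of the log2 fold changes were between 0.085 and 0.20. The 95% intervals of 43 of the 45 genes lay wholly between 0.7-fold and 1.4-fold, so that for those genes a change beyond these limits is outside the interval. The exceptions were Ndufaf2, whose interval reached down to 0.698-fold, and Ndufa4l2, whose interval reached up to 1.65-fold.

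At an unadjusted p under 0.05 there was 1 lower gene in Baf155ΔMF muscle, Ndufb6, beside 4.6% of all tested genes, and no higher gene, beside 3.35%. DESeq2 and limma-voom also gave Ndufb6 alone at this limit, beside 4.99% and 7.76% of all tested genes. Neither gave a member with an adjusted p under 0.05. The values of the groups did not overlap in 2 genes, Ndufaf2 and Ndufc2, both lower in Baf155ΔMF mice, beside 5.57% of all tested genes. No member was higher without overlap, beside 5.2%. These shares give the members no more separated genes than the table as a whole. The count at the unadjusted limit depended on single mice. It was 8 genes without Baf155WT mouse 1, beside 23.8% of all tested genes in that fit. It was 4 genes without Baf155ΔMF mouse 3, beside 10.2%, and 0 without each of the other 4 mice, beside 3.69% to 4.6%. The title prefix as a covariate leaves the genotype difference to the MS13 mice, with 1 Baf155WT mouse, so it is no separate check.

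The direction was more uneven than the size. The log2 fold change was below 0 in 34 of 45 genes, where 50.2% of all tested genes were below 0, and its median was -0.069 against -0.00095 over all tested genes. The count of 34 moved with the scaling, to 38 with upper-quartile scaling and to 44 with library size alone, which moved the median of all genes to -0.064. It moved the other way, to 17, when a trend with gene length was removed, as described further on. Single mice moved it too. The count was 26 without Baf155WT mouse 3 (median -0.014) and 29 without Baf155ΔMF mouse 1 (median -0.023). Without each of the other mice it was 35 to 40. Genes of 1 pathway share mice and libraries, so their directions are not independent.

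**Figure D1:**
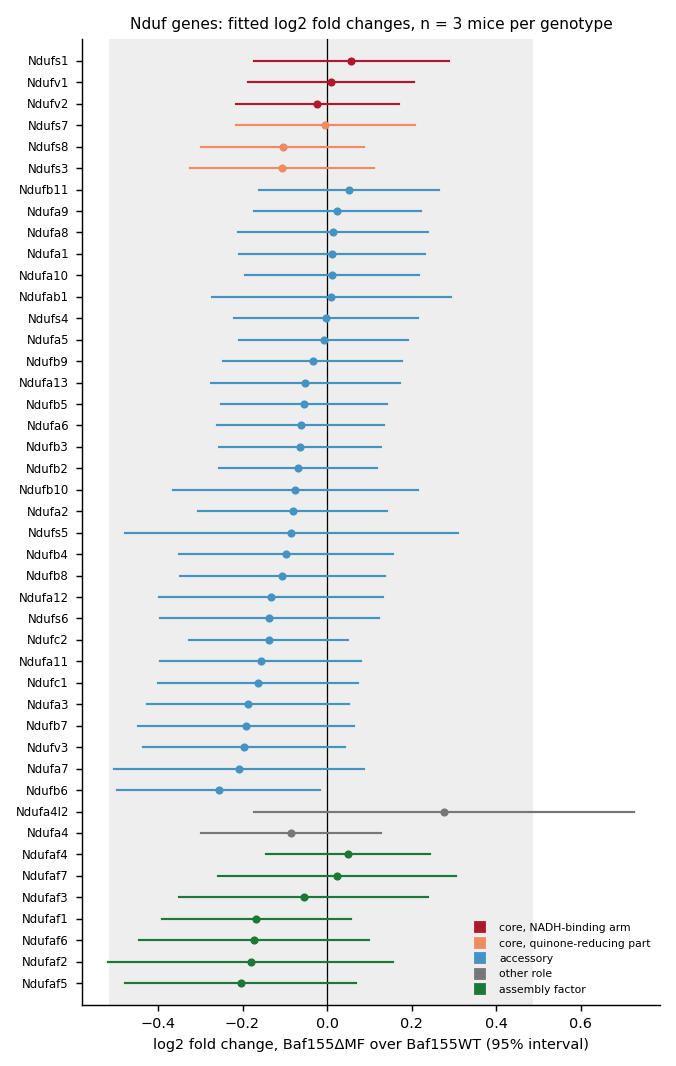
Fitted log2 fold changes (x axis, Baf155ΔMF over Baf155WT, n = 3 mice per genotype) of 44 Nduf genes (y axis), coloured by role, with 95% intervals as lines. The grey band spans 0.7-fold to 1.4-fold; the intervals of all but Ndufaf2 and Ndufa4l2 lie inside it, and that of Ndufb6 alone does not include 0.

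The core subunits encoded in the nucleus that are described here had log2 fold changes from -0.11 in Ndufs3 to 0.057 in Ndufs1. The 3 that form the NADH-binding end of the matrix arm had values on both sides of 0. Ndufv1, the subunit that binds NADH and the flavin, was at 342, 305 and 331 CPM in Baf155WT mice and at 322, 330.1 and 332 CPM in Baf155ΔMF mice (log2 fold change 0.0094, 95% interval -0.19 to 0.21). All 3 Baf155ΔMF mice lay between the lowest and the highest Baf155WT mouse. Ndufv2, an iron-sulfur subunit beside it, was at 353, 351 and 375 CPM and 346, 358 and 359 CPM (log2 fold change -0.023, 95% interval -0.21 to 0.17). The groups overlapped here too, with Baf155WT mouse 3 highest. Ndufs1, the largest subunit of the matrix arm, which holds several iron-sulfur clusters, was at 495, 398 and 459 CPM and 485, 480.3 and 442 CPM (log2 fold change 0.057, 95% interval -0.17 to 0.29). Its spread came mainly from Baf155WT mouse 2, which was the lowest of the 6 mice.

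In the quinone-reducing part, the core subunits described here had log2 fold changes from -0.11 to -0.0038. Ndufs7, which carries the last iron-sulfur cluster before ubiquinone, was at 184, 178 and 204 CPM and 176, 185 and 203 CPM (log2 fold change -0.0038, 95% interval -0.22 to 0.21). Mouse 3 was the highest of each group, and the groups overlapped. Ndufs3, a structural subunit of the same part, was at 218, 224 and 265 CPM and 219, 216 and 222 CPM (log2 fold change -0.11, 95% interval -0.32 to 0.11). The difference between the means came from Baf155WT mouse 3, since the other 5 mice lay within a narrow range. Ndufs8, which holds further iron-sulfur clusters, was at 126, 125 and 138 CPM and 116, 121 and 126 CPM (log2 fold change -0.11, 95% interval -0.30 to 0.087). Of the Baf155ΔMF mice, only mouse 3 reached the Baf155WT range. The core subunits of the membrane arm, encoded by mitochondrial DNA, were not analysed here.

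The accessory subunits, 29 genes without Ndufa4 and Ndufa4l2, had a median log2 fold change of -0.075, with 23 of 29 below 0. By name, the median was -0.057 for the 12 Ndufa genes (8 below 0), -0.072 for the 10 Ndufb genes (9 below 0), -0.15 for the 2 Ndufc genes (both below 0) and -0.085 for the 3 Ndufs genes (all 3 below 0).

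The lowest fold change belonged to Ndufb6, an accessory subunit of the membrane arm, whose promoter is shown above. It was at 102, 114 and 124 CPM in Baf155WT mice (113 ± 11.1, mean ± SD, n = 3) and at 89.2, 88.5 and 107 CPM in Baf155ΔMF mice (94.99 ± 10.7), a log2 fold change of -0.26 (standard error 0.11, 95% interval -0.50 to -0.017, adjusted p = 0.611 by edgeR). Baf155ΔMF mice 1 and 2 were below every Baf155WT mouse and Baf155ΔMF mouse 3 was within their range. Among the MS13 mice the log2 difference was -0.20. Exons of Ndufb6 overlap those of Smim27 on the opposite strand, and whether the counting used strand is not given in the sources used here.

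The next in order were Ndufa7, Ndufaf5, Ndufv3 and Ndufb7. Ndufa7, an accessory subunit of the matrix arm, was at 108, 153 and 142 CPM and 107, 110.3 and 132 CPM (log2 fold change -0.21, 95% interval -0.50 to 0.087). The 3 MS13 mice were near each other whatever their genotype, with a log2 difference of 0.0076 between genotypes, and the MS15 Baf155WT mice were above them. Ndufv3, a small accessory subunit of the NADH-binding end, was at 123, 144 and 148 CPM and 108, 119.8 and 134 CPM (log2 fold change -0.20, 95% interval -0.44 to 0.043). Here Baf155ΔMF mouse 3 was above Baf155WT mouse 1, so the groups overlapped, and the MS13 difference was -0.11. Ndufb7, a membrane-arm subunit on the intermembrane-space side, was at 105, 119 and 132 CPM and 92.1, 102 and 118 CPM (log2 fold change -0.19, 95% interval -0.45 to 0.065). Again 2 Baf155ΔMF mice were below all Baf155WT mice and mouse 3 was not.

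Ndufc2, a membrane-arm subunit, was the only subunit gene whose groups did not overlap. It was at 139, 134 and 138 CPM and 120.02, 121 and 132 CPM, a log2 fold change of -0.14 (95% interval -0.33 to 0.050, adjusted p = 0.66 by edgeR). The gap between the highest Baf155ΔMF mouse and the lowest Baf155WT mouse was small beside the range within Baf155ΔMF mice. Among the MS13 mice the log2 difference was -0.21.

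At the high end of the accessory subunits, Ndufb11, a membrane-arm subunit encoded on the X chromosome, was at 220.1, 210.0 and 214 CPM and 199, 243 and 226 CPM (log2 fold change 0.052, 95% interval -0.16 to 0.27). The Baf155ΔMF mice lay on both sides of the Baf155WT range. Ndufa9, which binds a nicotinamide nucleotide near the junction of the arms, was at 216, 193 and 215 CPM and 206, 213 and 216 CPM (log2 fold change 0.024, 95% interval -0.17 to 0.22). Baf155WT mouse 2 was the lowest of the 6 mice. Ndufab1, the mitochondrial acyl carrier protein, which also serves fatty acid synthesis in mitochondria, was at 52.9, 47.6 and 65.0 CPM and 52.1, 51.3 and 63.1 CPM (log2 fold change 0.0098, 95% interval -0.27 to 0.29). Mouse 3 was the highest of each group.

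The genes Ndufa4 and Ndufa4l2 carry the name of the family but have other roles. Ndufa4 is now assigned to complex IV. It was at 564, 552 and 577 CPM and 487, 537 and 573 CPM (log2 fold change -0.085, 95% interval -0.30 to 0.13), with Baf155ΔMF mice 1 and 2 below the Baf155WT range and mouse 3 within it. Ndufa4l2, a relative of Ndufa4 that is a known target of HIF-1 in hypoxia, had the highest log2 fold change of the family, 0.28 (standard error 0.20, 95% interval -0.17 to 0.73, adjusted p = 0.699 by edgeR). It was at 4.66, 4.59 and 4.37 CPM in Baf155WT mice and at 4.38, 5.09 and 7.13 CPM in Baf155ΔMF mice. The value rested on Baf155ΔMF mouse 3, the MS14 mouse: without it the log2 fold change was 0.063. Among the MS13 mice the log2 difference was 0.017, and a prefix term, which rests on the same MS13 mice, gave 0.022. The gene had 41 to 61 counts per mouse, the fewest of the subunit names, and its exons overlap those of Shmt2 on the opposite strand.

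**Figure D2:**
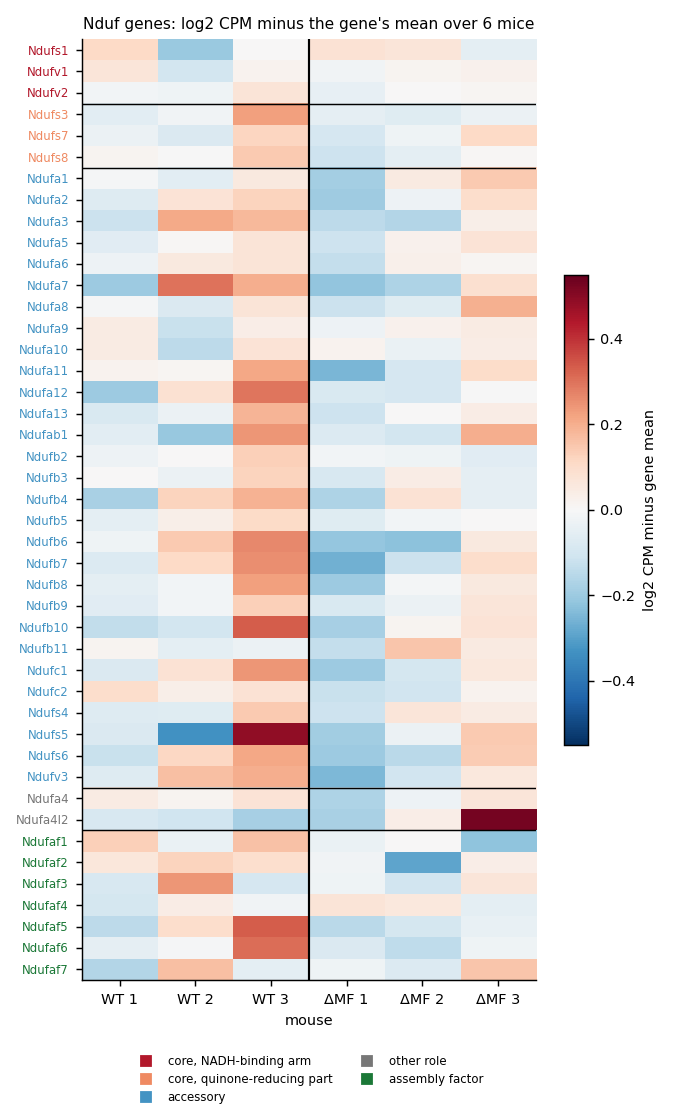
Level of 44 Nduf genes (y axis, coloured and separated by role) in each of the 6 mice (x axis), as log2 CPM minus the gene's mean over the mice; red is above and blue below that mean. Baf155WT mouse 3 is the highest mouse in 29 of the 45 genes of the family and Baf155ΔMF mouse 1 the lowest in 26. These counts were not set beside all tested genes.

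The 7 Ndufaf assembly factors had a median log2 fold change of -0.17, with 5 of 7 below 0. They were at far lower levels than the subunits, so that the medians rest on fewer counts. Ndufaf1, which with Ecsit and Acad9 helps to assemble the membrane arm, was at 42.9, 38.3 and 43.8 CPM and 38.2, 39.2 and 33.7 CPM (log2 fold change -0.17, 95% interval -0.39 to 0.056). Its lowest value was in Baf155ΔMF mouse 3, unlike the subunits described above. Ndufaf2, a relative of Ndufa12 that joins a late intermediate, was at 6.90, 7.19 and 7.05 CPM and 6.51, 5.40 and 6.78 CPM (log2 fold change -0.18, 95% interval -0.52 to 0.16). The groups did not overlap, but Baf155ΔMF mouse 3 was close to the lowest Baf155WT mouse, and each mouse had only 52 to 94 counts.

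Ndufaf3 and Ndufaf4 act together early in the assembly of the matrix arm, and neither was lower in all Baf155ΔMF mice. Ndufaf3 was at 11.6, 14.5 and 11.5 CPM and 12.1, 11.4 and 12.9 CPM (log2 fold change -0.056, 95% interval -0.35 to 0.24), with only Baf155WT mouse 2 apart from the others. Ndufaf4 was at 47.5, 52.3 and 50.2 CPM and 53.4, 52.9 and 49.0 CPM (log2 fold change 0.050, 95% interval -0.14 to 0.24), and the groups overlapped. Ndufaf5, which hydroxylates an arginine of Ndufs7, was at 28.9, 34.0 and 40.2 CPM and 28.7, 29.8 and 31.0 CPM (log2 fold change -0.20, 95% interval -0.48 to 0.068). As in Ndufa7, Baf155WT mouse 1 lay with the Baf155ΔMF mice and the MS15 mice lay above, and the MS13 difference was 0.020.

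Ndufaf6, another early factor, was at 17.0, 17.5 and 21.8 CPM and 16.7, 16.0 and 17.3 CPM (log2 fold change -0.17, 95% interval -0.44 to 0.099). The difference was mostly that of Baf155WT mouse 3. Ndufaf7, a protein methyltransferase of mitochondria, was at 12.4, 15.6 and 13.4 CPM and 13.7, 13.2 and 15.4 CPM (log2 fold change 0.023, 95% interval -0.26 to 0.31), with full overlap. Ndufaf7 was the only member whose deposited values were not whole numbers, in all 6 mice, so its values are uncertain where the estimate divided reads between genes.

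Assembly factors without an Nduf name stood on both sides of 0. Of 17 listed, 14 were in the table and tested, 7 below and 7 above 0 (median 0.0042), from -0.22 in Lyrm2 to 0.13 in Aifm1, with none at an unadjusted p under 0.05. The partners of Ndufaf1 were at -0.028 (Ecsit) and -0.0092 (Acad9) on the log2 scale. The gene now named Ndufaf8 is in the table under the older symbol 1810043H04Rik, outside the naming rule, and was at 8.94, 10.7 and 12.7 CPM and 9.18, 8.93 and 10.6 CPM (log2 fold change -0.17, 95% interval -0.52 to 0.17).

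The members varied less between mice than the median tested gene, but they were also at higher levels. Their mean log2 CPM in Baf155WT mice was 6.89, where that of all tested genes was 4.08. The variation was not set beside genes of like level, such as those of the other respiratory complexes. The median coefficient of variation was 8.16% among Baf155WT and 7.29% among Baf155ΔMF mice, where the medians over all tested genes were 11.2% and 9.57%. Ndufs5, a subunit of the membrane arm, varied most among Baf155WT mice (30.2%), at 127, 106 and 188 CPM, with mouse 3 above and mouse 2 below all Baf155ΔMF mice (117, 131 and 148 CPM). In all, 6 genes had a coefficient over 15% among Baf155WT mice and 1, Ndufa4l2, among Baf155ΔMF mice.

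The level of the whole family differed from mouse to mouse. Baf155WT mouse 3 had the highest value of the 6 mice in 29 genes and Baf155ΔMF mouse 1 the lowest in 26. These counts were not set beside all tested genes. The same mice were highest and lowest in mean log2 CPM of complexes II to V. The summed level of all members was 7784, 7862 and 8715 CPM in Baf155WT mice and 7400, 7840.1 and 8184 CPM in Baf155ΔMF mice, where only Baf155WT mouse 3 and Baf155ΔMF mouse 1 lay outside the range of the other group. The mean log2 CPM of the subunits was 7.28, 7.31 and 7.47 in Baf155WT mice and 7.20, 7.29 and 7.39 in Baf155ΔMF mice, a difference of -0.062 over all mice and of -0.037 within MS13. For the assembly factors it was 4.29, 4.42 and 4.44 against 4.30, 4.25 and 4.32, a difference of -0.094 over all mice and of -0.015 within MS13. Both groups of values overlapped.

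Within MS13, where 1 Baf155WT mouse can be set beside 2 Baf155ΔMF mice, 30 of 45 genes were below 0 and the median log2 difference was -0.032 (range -0.21 to 0.16), beside 50.2% below 0 and a median of -0.00065 over all tested genes. This comparison has a single control mouse and no test. The MS15 Baf155WT mice were above the MS13 Baf155WT mouse in 36 of 45 genes (median log2 difference 0.11). That gap between control mice was larger than the difference between genotypes in 34 of 45 genes. The gap rests on fewer mice than the difference between genotypes, so it varies more by sampling alone. Neither count was set beside all tested genes, so the counts do not set complex I genes apart.

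**Figure D3:**
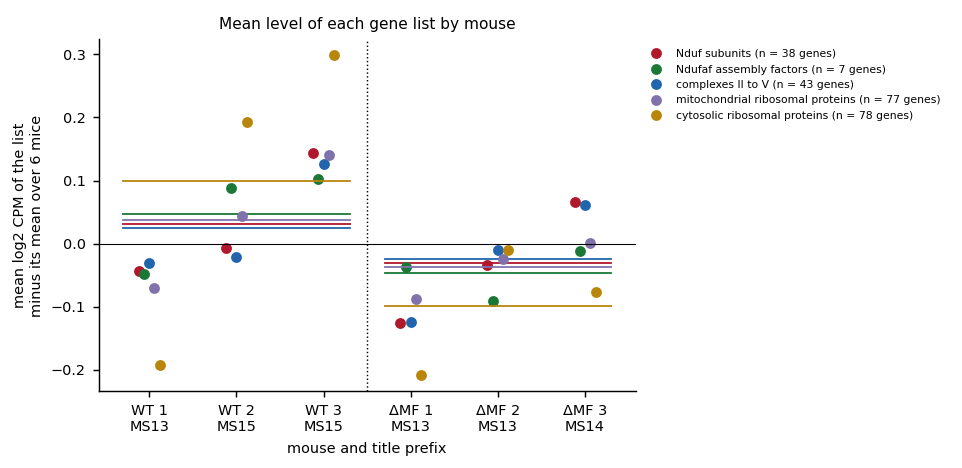
Mean log2 CPM of each gene list in each mouse (y axis, minus the list's mean over the 6 mice; x axis, mouse and title prefix); horizontal lines are the means of 3 mice. Baf155WT mouse 3 is highest and Baf155ΔMF mouse 1 lowest for both the Nduf subunits and complexes II to V.

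The other respiratory complexes gave values of the same size. Over 43 tested nuclear genes of complexes II to V, 30 were below 0 and the median log2 fold change was -0.041, from -0.27 in Atp5e, an ATP synthase subunit, to 0.14 in Cox4i2, a form of a complex IV subunit. None had an adjusted p under 0.05 by edgeR and 1, Atp5e, had an unadjusted p under 0.05. By complex, the median was 0.052 for complex II, -0.000053 for complex III, -0.078 for complex IV and -0.061 for complex V, beside -0.066 for the complex I subunits. Whether complex I differs from the others was not tested. Mitochondrial ribosomal protein genes had a median of -0.078 (63 of 77 below 0), and cytosolic ribosomal protein genes had a lower one, -0.22 (77 of 78 below 0). Within MS13 the differences in mean log2 CPM of these 2 lists were above 0, at 0.014 and 0.083. With the trend with gene length removed, as described below, their medians were -0.011 and -0.10.

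Nduf transcripts are short, and short transcripts had lower fold changes across the table. The median transcript length was 875 bases for the members and 2886 bases over all tested genes, and 44 of 45 members were shorter than that median. Across all tested genes with a known length, Spearman's rho between log2 fold change and transcript length was 0.32, a description across genes that share the same 6 libraries. Gene length here means the bases covered by any annotated exon of the gene, not its span on the chromosome. When a smooth trend with gene length was removed from each mouse, the median was 0.033 for members and 0.013 over all tested genes. Of the members, 17 of 45 were below 0. With transcript length in its place, the medians were 0.045 and 0.014, with 14 of 45 members below 0. The sign of the group's median therefore turned with this choice, and the assembly factors, with a longer median transcript of 1451 bases, had a median of -0.034 and -0.047, nearer to 0 than the -0.17 without a trend removed. What ties length to the fold change was not tested.

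**Figure D4:**
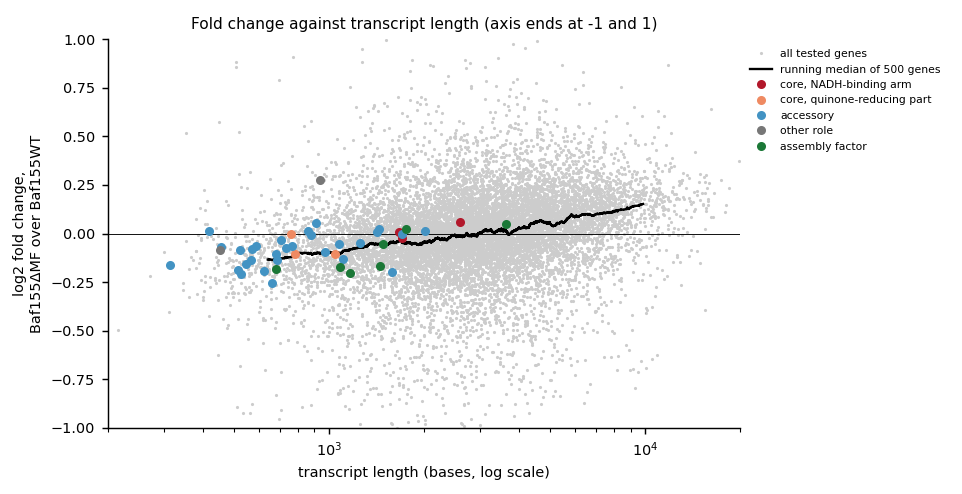
Log2 fold change (y axis, Baf155ΔMF over Baf155WT) against transcript length (x axis, bases, log scale) for all tested genes (grey) and 44 Nduf genes (coloured by role). The black line is the running median of 500 genes, which lies below 0 at short lengths, where most Nduf genes are, and above 0 at long lengths; genes beyond 1 on either side of 0 are outside the axis.

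Levels between genes were compared per kilobase of transcript, as CPM divided by the length of the principal transcript. Ndufa4 was the highest, at 1249 ± 26.9 CPM per kilobase in Baf155WT and 1177 ± 96.4 in Baf155ΔMF mice. Ndufb9 and Ndufb8, both membrane-arm subunits, followed at 633 ± 45.2 and 579 ± 62.8 in Baf155WT mice, values that overlapped between these genes within their spread. The complex I subunits had a median of 211.7 CPM per kilobase in Baf155WT and 203.6 in Baf155ΔMF mice, and the assembly factors had a median of 13.8 and 14.2.

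The lowest subunit, Ndufab1 (38.9 ± 6.29 in Baf155WT mice), had a mean above that of the highest assembly factor, Ndufaf5 (29.5 ± 4.85), and single mice of the 2 genes overlapped. Of all 45 genes, Ndufa4l2 was the lowest, at 4.86 ± 0.162 and 5.92 ± 1.53 CPM per kilobase. Between Ndufa7 at 255 ± 44.4 and Ndufv1 at 196 ± 11.5, in the middle of the order, genes of adjacent rank did not differ beyond their spread. Some genes further apart in this stretch did, such as Ndufb11 at 236 ± 5.62 and Ndufc2 at 200.5 ± 4.49 in Baf155WT mice. The order was nearly the same in both genotypes: 21 genes kept their rank and the largest shift was 5 places, in Ndufa7 and Ndufb6. For Ndufab1, Ndufb2 and Ndufc1 the annotated principal transcripts differ in length by more than 2-fold, so their places depend on the transcript chosen.

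**Figure D5:**
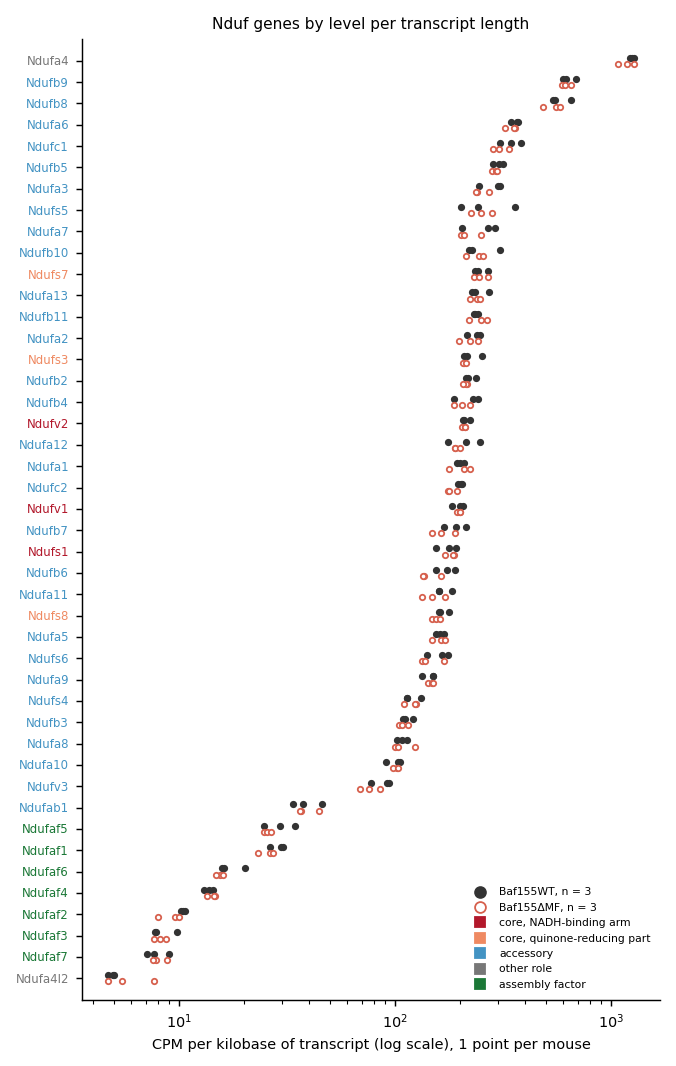
Level per kilobase of transcript (x axis, CPM per kilobase, log scale) of 44 Nduf genes (y axis, ordered by the Baf155WT mean, names coloured by role), 1 point per mouse, filled for Baf155WT and open for Baf155ΔMF. The means of the assembly factors and Ndufa4l2 lie below those of all complex I subunits shown, with the points of Ndufaf5 and Ndufab1 overlapping, and the points of the 2 genotypes overlap in all genes shown but Ndufaf2 and Ndufc2.

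Markers of other cells in the muscle differed between the mice. All 7 tested leukocyte markers were lower in Baf155ΔMF mice at an unadjusted p under 0.05 (median log2 fold change -0.88, 0 with an adjusted p under 0.05 by edgeR), with summed levels of 161, 443 and 348 CPM in Baf155WT mice and 150.1, 157 and 228 CPM in Baf155ΔMF mice. The MS15 mice were the highest, and within MS13 the difference in mean log2 CPM was -0.071. Adipocyte markers had a median of -0.46 (5 of 6 below 0, 2 lower at an unadjusted p under 0.05 by edgeR). Their summed levels were 180.0 to 233 CPM in Baf155WT and 188 to 203 CPM in Baf155ΔMF mice. Erythrocyte markers had a median of -0.70 (5 of 5 below 0, 3 lower at that limit, summed levels 622 to 1227 and 371 to 805 CPM). Endothelial markers had a median above 0 (0.29, 6 of 6 above 0, 2 higher at that limit, summed levels 194 to 262 and 260.2 to 289.9 CPM). Slow and oxidative fibre markers had a median of -0.0041 (4 of 8 below 0, summed levels 2151 to 3244 and 3016 to 3407 CPM). The highest of them, Myh2 at 0.38, was the only 1 called at that limit. Of all tested genes, 4.6% were lower and 3.35% higher at that limit. Fast glycolytic fibre markers had a median of -0.14 (6 of 8 below 0, summed levels 119007 to 123342 and 109865 to 118973 CPM). The lowest Baf155WT and the highest Baf155ΔMF sum were nearly equal, and within MS13 the difference in mean log2 CPM was 0.0081. Fibroblast markers had a median of -0.051 (3 of 6 below 0, 2 lower at an unadjusted p under 0.05, summed levels 1906 to 2263 and 1685 to 2635 CPM). No defining marker list was at 0 in any mouse. Their part in the values of the complex I genes was not tested.

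Part of the counts cannot be assigned to 1 gene with certainty. Exons of 19 members overlap exons of another annotated gene, in 3 cases on the same strand (Ndufb2 with Gm42420, Ndufb8 with Gm20538 and Ndufb9 with Gm49356). The libraries were stranded, but the strand setting of the counting is not given in the sources used here, so reads of genes that overlap on opposite strands, such as Ndufs3 and Kbtbd4 or Ndufaf3 and Impdh2, may be mixed. With 3 mice against 3, the smallest p that exact permutation allows for any single gene is 0.10.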

How the data were processed

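The authors deposited 1 table of expected counts (estimated numbers of reads per gene by RSEM, not normalized) for 6 mice. The submitters' processing notes name CASAVA 1.8.2, cutadapt 1.10, Bowtie2 2.2.7, TopHat2 2.1.1, RSEM 1.2.30, limma and the builds mm10 and GRCm38, and the annotation is not given in the sources used here. Libraries were stranded total RNA, 1 per mouse, and the labelled genotype set the groups. Values were rounded to whole counts for edgeR 4.0.16 (R 4.3.3): filterByExpr (minimum count 10, minimum total 15), TMM scaling, quasi-likelihood F test on genotype, and Benjamini-Hochberg adjustment over 12116 genes. The fit was tested on simulated counts of genes drawn independently, with changes larger than those of the Nduf genes. That test does not show how well changes of their size are found. Intervals use the standard error from the F statistic. Mean log2 CPM used a prior count of 2. Lengths and positions came from GENCODE M21, with the shortest APPRIS principal transcript, and promoters from RefSeq. All 45 symbols matched. The values of 1 Nduf gene are not reported here, though counts over the family include it.

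The members, the gene lists and the tests were chosen with earlier results of these data known. The genes named are Smarcc1, nuclear core subunits, Ndufa4, Ndufa4l2, Ndufab1, the 5 highest and 5 lowest log2 fold changes, every Ndufaf gene, genes with an unadjusted p under 0.01 (no member) and the ends of other lists. Ndufa3, Ndufb2, Ndufb4, Ndufb8, Ndufb9, Ndufc1, Ndufc2, Ndufs5, Ecsit and Acad9 and the gene under an older symbol were named after their values were seen. Alternatives tried were limma-voom (limma 3.58.1), DESeq2 1.42.0, a robust fit, other filters and scalings, the title prefix as covariate, trends with gene length, GC content and transcript length removed, and leaving out each mouse.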

Additional observations from a re-analysis of the deposited data

How the results depend on the processing

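No Nduf gene had an adjusted p under 0.05 under any of the 18 alternatives. The smallest adjusted p of a member was 0.054, without Baf155WT mouse 1. Over the whole table the count of such genes was 3, and 17 with no filter beyond 1 count, 22 by DESeq2, 5 by limma-voom, 16 with a term for the title prefix, 7 with the trend with gene length removed, and from 0 to 955 when each mouse was left out (0 without Baf155WT mouse 2 and without Baf155ΔMF mouse 2). Nduf genes with an unadjusted p under 0.05 numbered 2 with library size only (Ndufaf1 and Ndufb6), beside 8.03% of all tested genes in that fit. They numbered 0 with the trend with gene length removed (beside 7.87%) and with that of transcript length removed (7.8%). Leaving out each mouse gave 0 to 8. The count was 8 without Baf155WT mouse 1 (beside 23.8% of all tested genes) and 4 without Baf155ΔMF mouse 3 (10.2%). It was 0 without any other mouse (3.69% to 4.6%). The median of the subunits was 0.035 with the trend with gene length removed and 0.051 with that of transcript length, an alternative chosen after seeing the data. The subunit median lay between -0.096 and -0.010 when each mouse was left out. It was nearest 0 without Baf155ΔMF mouse 1 (-0.010) and without Baf155WT mouse 3 (-0.011). The median of the Ndufaf genes was 0.020 with the title prefix, -0.034 and -0.047 with the length trends, and from -0.17 to -0.080 when each mouse was left out. Their mean log2 CPM differed by -0.015 within MS13.

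Signs of single genes near 0 turned as follows, and none of these genes had an adjusted p under 0.05. With library size only the log2 fold change was -0.036 in Ndufa9, -0.051 in Ndufab1, -0.016 in Ndufaf4, -0.041 in Ndufaf7, -0.0083 in Ndufb11, -0.0027 in Ndufs1 and -0.051 in Ndufv1. With upper-quartile scaling the log2 fold change was -0.0038 in Ndufab1 and -0.0038 in Ndufv1. With a prefix term the log2 fold change was 0.0078 in Ndufa7, -0.047 in Ndufa9, -0.032 in Ndufab1, 0.022 in Ndufaf3, 0.020 in Ndufaf5, -0.037 in Ndufs1 and -0.068 in Ndufv1. With the trend with GC content removed the log2 fold change was  and 0.033 in Ndufs7. With the trend with gene length removed the log2 fold change was 0.033 in Ndufa4, -0.018 in Ndufab1, 0.049 in Ndufaf3, 0.099 in Ndufs7, 0.022 in Ndufs8 and 0.061 in Ndufv2. With the trend with transcript length removed the log2 fold change was 0.050 in Ndufa4, 0.022 in Ndufaf3, 0.11 in Ndufs7, 0.013 in Ndufs8 and 0.039 in Ndufv2. Leaving out each mouse gave a range of -0.025 to 0.054 in Ndufa9, -0.088 to 0.14 in Ndufab1, -0.11 to 0.073 in Ndufaf3, -0.045 to 0.13 in Ndufaf7, -0.014 to 0.13 in Ndufb11, -0.021 to 0.13 in Ndufs1, -0.059 to 0.057 in Ndufs7, -0.033 to 0.047 in Ndufv1 and -0.037 to 0.0075 in Ndufv2. The causes were not tested.

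No paired analysis was possible because the replicate numbers in the titles have only the number 2 in common between genotypes, and no label says that it marks a litter or day. With 3 mice per group and standard errors near 0.10 on the log2 scale, smaller differences than the intervals given cannot be told from none. Leaving out a mouse left 2 in its group. The depth limits most the assembly factors and Ndufa4l2.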
